A study of Homo sapiens with 4 samples.

Results

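The replication-dependent histone genes are described here through the m6A peaks called on their RNA. They were chosen by symbol among the protein-coding genes of GENCODE for hg38, as H1-1 to H1-5 and every gene named H2AC, H2BC, H3C or H4C followed by digits. This rule found 68 of 20046 protein-coding genes. They comprised 5 genes of H1, the linker histone, and 17 genes of H2A, 18 of H2B, 13 of H3 and 15 of H4, whose proteins form the nucleosome core. On the map, 54 lay on chromosome 6, 13 on chromosome 1 and 1, H4C16, on chromosome 12. The study asked which RNAs carry N6-methyladenosine (m6A) in OE-19, an established cell line of adenocarcinoma of the esophagogastric junction. Methylated RNA fragments were pulled down with an anti-m6A antibody and sequenced (meRIP-seq). There were 2 IP samples (replicates 1 and 2) and 2 input samples without antibody, all from OE-19 cells in RPMI1640 with serum and with no treatment in the labels. Peaks were listed for each IP sample apart, 24607 for replicate 1 and 19318 for replicate 2, and no list of the input samples was analyzed here. The lists hold no read numbers, so the depth is unknown, and they hold no strand. With 1 group of 2 samples no test between groups was possible, and the values of both replicates are given instead.

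Replication-dependent histone mRNAs are made in S phase, when new DNA is packed into nucleosomes. They carry no poly(A) tail. Their 3′ end is cut just after a conserved stem-loop that is bound by SLBP, and most of these genes have no intron. m6A is written mainly by METTL3 and METTL14, often at GGAC, and in mRNAs it is best known near stop codons and in long exons. Which RNA was selected for the meRIP libraries (poly(A) RNA, or RNA without rRNA) is not given in the sources used here beyond the label of total RNA, and how many histone mRNA fragments entered the libraries was not tested.

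The stem-loop marks where the histone mRNA ends and was found in all 68 genes within 200 nt after the stop codon. It started 23 to 68 nt after the stop codon, with a median of 36.0 nt. It matched the histone stem-loop consensus with 0 mismatches in 65 genes and with 1 mismatch in H2BC10, H3C6 and H4C13. The 4 forms held by more than 1 gene, read from hg38 on the gene strand and with both arms of the stem in capitals, are shown because every peak below is placed relative to them:
Form of 40 genes (4 of H1, 13 of H2A, 12 of H2B, 11 of H3): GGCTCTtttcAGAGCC
Form of 10 genes of H4: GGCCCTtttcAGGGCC
Form of 8 genes (H1-1, H2AC21, H2BC4, H2BC5, H2BC7, H2BC11, H2BC12, H3C8): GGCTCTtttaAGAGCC
Form of H4C9, H4C12, H4C14 and H4C15: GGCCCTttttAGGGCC
The H4 genes thus shared arms that no other family held in full, and the remaining 6 forms were each held by a single gene.

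Canonical transcripts of the 68 genes were 386 to 2224 nt long with a median of 487 nt, and 67 of them had 800 nt or less. The one longer transcript was that of H2BC21. With all annotated transcripts joined, the exonic length was 386 to 5002 nt with a median of 502 nt, against a median of 4428 nt in the other protein-coding genes. A single exon remained in 53 genes. Annotation beyond the short mRNA set 18 genes apart. In 17 of them, exons ran past the stem-loop for 375 to 4541 nt, and H3C12 had further exons only upstream of its start. The stretch past the stem-loop belonged to the canonical transcript in H2BC21 and to other transcripts in the rest. The other 50 genes held less than 100 nt of exon outside the stretch from the start of the short mRNA to 10 nt after the stem-loop, called the core below. This split was made after the positions of the peaks had been seen.

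Few histone genes carried a peak. A gene was counted when the summit of a peak, its highest point, lay in 1 of its exons. This held for 8 of 68 genes in replicate 1, or 11.8% (95% Wilson interval 6.08 to 21.5), against 42.4% of all protein-coding genes. It held for 4 of 68 in replicate 2, or 5.88% (2.31 to 14.2), against 34.1%. The same 4 genes, H2BC5 and H2BC6 of the H2B family and H4C14 and H4C15 of the H4 family, had a peak in both replicates, where the share of all protein-coding genes was 33.4%. With exons of canonical transcripts only, the number fell to 0 in replicate 2 and in both, and with a fold enrichment of 5 or more to 2 in replicate 1 and 2 in both. In replicate 1 the further genes were H3C11, H3C13, H4C5 and H4C16. These intervals cover counting error over genes only, and copies among the genes share sequence.

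Set against genes of their own length, the shares of the histone genes lay close to the background. For each histone gene, the share with a peak was taken among other protein-coding genes with an exonic length within 10% of its own. Averaged over the histone genes, this share was 10.1% in replicate 1, 6.58% in replicate 2 and 6.28% in both. The 10009 different genes used do not weigh equally in these averages. When only single-exon genes were taken (886 genes), the averages were 9.17%, 7.88% and 7.76%. All of them lie within the Wilson intervals of the histone genes. The difference in both replicates was -0.396 percentage points. Ribosomal protein genes encode the protein part of the ribosome. They had a peak in 7 of 86 cases in replicate 1 (8.14%) and in 4 of 86 in replicate 2 (4.65%). Averaged over them, the share among genes of like length was 37.1% and 28.9%. Shares of genes of like length below were averaged in the same way. RNA level was not matched in any of these shares, since the lists give none.

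**Figure D1:**
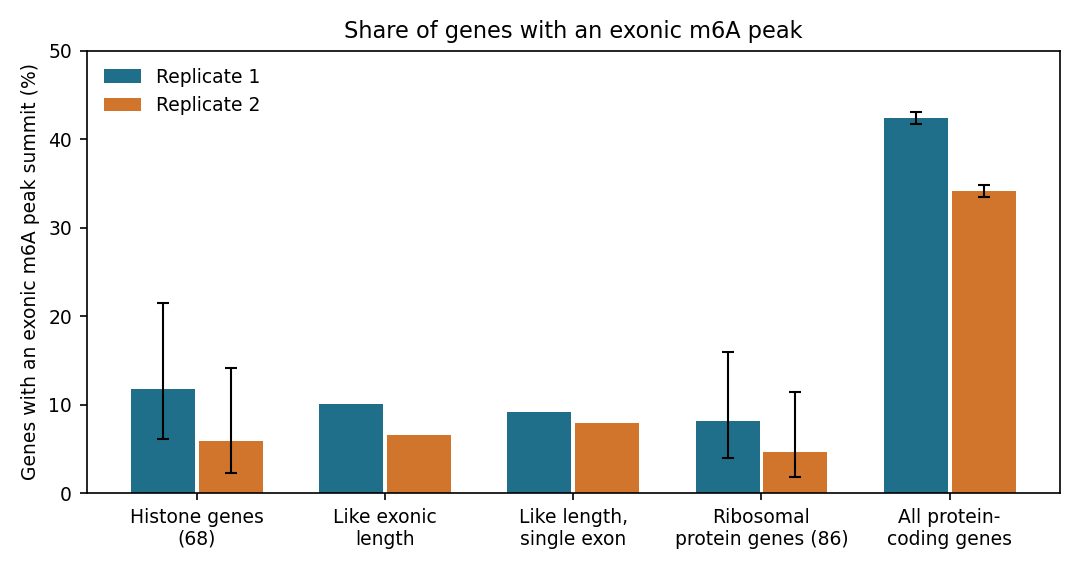
Share of genes with an exonic m6A peak summit (percent) in replicates 1 and 2. Lines show the 95% Wilson interval. Bars without lines are averages, over the histone genes, of the share among genes of like length to each. The histone genes (11.8% and 5.88%) sit beside genes of their length (10.1% and 6.58%) and below all protein-coding genes (42.4% and 34.1%).

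By family, the 5 H1 genes and the 17 H2A genes had no exonic peak summit in either replicate, which leaves room for a share of up to 43.4% and 18.4% by the upper Wilson bound. Among the 18 H2B genes, 2 had a peak in replicate 1 and 2 in replicate 2. Among the 13 H3 genes, 2 had one in replicate 1 and 0 in replicate 2. Among the 15 H4 genes the numbers were 4 and 2. The families are small and their Wilson intervals overlap, so no order among them can be read.

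All 4 genes counted in both replicates were among the 18 genes with exons beyond the core (22.2%, 9.0 to 45.2), and 0 of the 50 genes without them were (upper bound 7.13%). Since every summit of replicate 2 lay in such an exon and the split was made after the peaks had been seen, this count was fixed by the split and is a description only. The median exonic lengths of the 2 groups were 1878 nt and 491 nt. The average share among genes of like length, in both replicates, was 18.3% for the first group and 1.96% for the second. In replicate 1 the shares were 27.8% of the 18 genes and 6.0% of the 50. The averages among genes of like length were 25.5% and 4.62%. Of the 5 genes behind the 27.8%, H2BC6 and H4C16 had their replicate 1 summit in the coding sequence, not in an exon beyond the core. Of the others, H4C14 and H4C15 are near copies and count as 1 site.

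The summits were placed differently in the lists of replicates 1 and 2, which hold 9 and 4 of them, too few to compare shares. H4C14 and H4C15, near copies, are counted apart in both. In replicate 1, 6 of 9 summits (66.7%) lay in the coding sequence and 3 (33.3%) lay beyond the stem-loop. In replicate 2, 0 of 4 lay in the coding sequence, 3 (75%) lay beyond the stem-loop and 1 lay in an exon upstream of the start codon. No summit of either replicate fell between the stop codon and the stem-loop. Every summit outside the coding sequence was also outside the canonical transcript. Counted per 1000 nt of exon, replicate 1 had 0.179 summits in the core of the histone genes and 0.110 in their exons beyond the stem-loop, against 0.166 in the exons of all other protein-coding genes. In replicate 2 the values were 0, 0.110 and 0.108. In their exons upstream of the core the values were 0 in replicate 1 and 0.395 in replicate 2, the latter from 1 summit in 2534 nt.

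The sites that carried peaks in both replicates, all outside the core, come first. H4C14 and H4C15 encode the same H4 protein and lie on opposite strands of chromosome 1, 14277 nt apart. In H4C14, replicate 1 had a peak at chr1:149834164-149834726 with a fold enrichment of 7.07 and replicate 2 had one at chr1:149834187-149834748 with 7.03. Fold enrichment is the ratio of IP signal at the summit to the background of the peak caller. In H4C15 the peaks were at chr1:149859050-149859654 with 8.56 in replicate 1 and at chr1:149859058-149859623 with 6.46 in replicate 2. All 4 summits lay 1303 to 1333 nt after the stop codon by genomic distance, in a second exon that joins longer transcripts only.

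Both genes are near copies of each other. Their spans of 7111 and 7115 nt differed by 13 edits (99.8% identity), and the stretch of 75 nt on each side of every summit had a copy of 100% identity at the other gene and at no further place of 98% or more. Peaks came in mirrored pairs in and around the genes. Upstream of the start codon, with summits between -738 and -678 nt from it, H4C14 had fold enrichments of 4.69 and 4.67 in replicates 1 and 2 and H4C15 had 5.87 and 4.0, the latter 2 in an exon of a lncRNA (ENSG00000264207). Past the last exon, H4C14 had 2.99 and 2.77 and H4C15 had 3.55 and 2.85. A read from one copy cannot be told from the other by sequence over the summit windows, so the 2 genes count as 1 site of unknown origin.

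**Figure D2:**
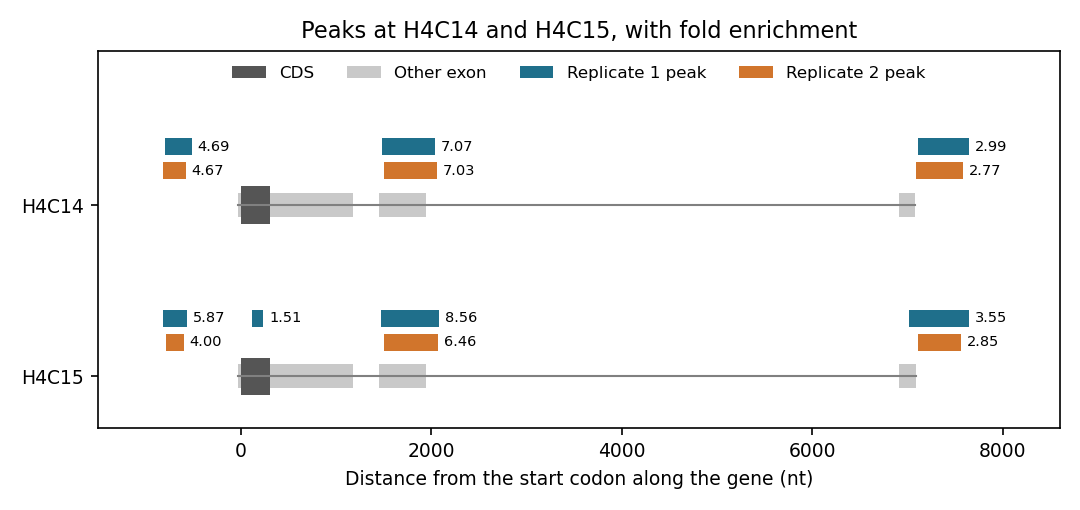
Peaks at H4C14 and H4C15 by distance from the start codon along each gene (nt), with exons in grey, the coding sequence in dark grey and the fold enrichment beside each peak. Both copies hold peaks upstream of the start codon, in the second exon (7.07 and 7.03; 8.56 and 6.46) and past the last exon in both replicates, while the peak of 1.51 in the coding sequence was called at H4C15 in replicate 1 only.

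H2BC5, which encodes an H2B protein, had a peak in its distal 3′ exon, at chr6:26171020-26171270 in replicate 1 and chr6:26170945-26171246 in replicate 2. The summits were 2 nt apart and lay 12539 and 12537 nt after the stop codon by genomic distance, since an intron separates this exon from the histone mRNA. The fold enrichment was 3.62 in replicate 1 and 7.48 in replicate 2. The log2 ratio of replicate 1 to replicate 2 was therefore -1.05, whereas it was 0.01 in H4C14 and 0.41 in H4C15. Over 11052 other protein-coding exonic peaks of replicate 1 that overlapped an exonic peak of replicate 2, its median was 0.42 (quartiles 0.08 and 0.76). The H2BC5 value thus lay on the other side of 0 from the bulk of the peaks, and with 1 value per replicate this was not tested. The same window around its summits had no copy of 90% identity or more.

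H2BC6, another H2B gene, was counted in both replicates but at different places. In replicate 1 the peak was at chr6:26183847-26184108 in the coding sequence, with a fold enrichment of 2.47. In replicate 2 it was at chr6:26172226-26172537 in an exon upstream of the start codon (summit at -11328 nt from it), with 6.09. The summits were 11583 nt apart and the peaks did not overlap. The upstream summit also lay in an exon of a lncRNA (ENSG00000283064), so that it may belong to either gene, and its window had 75 other places of 90% identity or more in the genome. H2BC6 therefore had no site shared by both replicates.

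The peaks in the coding sequence, all of replicate 1, were low. The fold enrichments were 2.68 in H3C11 and 1.70 in H3C13, which encode H3, 2.59 in H4C16, 1.61 in H4C5 and 1.51 in H4C15, which encode the same H4 protein, and 2.47 in H2BC6. No peak of replicate 2 overlapped any of them. Among the other protein-coding exonic peaks of replicate 1, ranked by fold enrichment, these 6 stood between the percentiles 0.0379 (H4C15) and 10.1 (H3C11). Their -log10 q ran from 3.48 in H4C5 to 21.0 in H3C11, which also had the highest fold enrichment of the 6. H4C15, with the lowest fold enrichment, had 3.57.

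How often low peaks of other genes were found again in replicate 2 was counted too. There were 1863 other protein-coding exonic peaks of replicate 1 in the same range of fold enrichment (1.51 to 2.68). Of these, 22.5% overlapped a protein-coding exonic peak of replicate 2 (20.7 to 24.5), and of the 16609 above that range 64.0% did (63.3 to 64.7). The 6 histone peaks, with 0 overlapping a replicate 2 peak of any kind, are too few to be set apart from the first share. Summits lay 110 to 255 nt after the start codon, well inside reading frames of 309 to 408 nt.

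**Figure D3:**
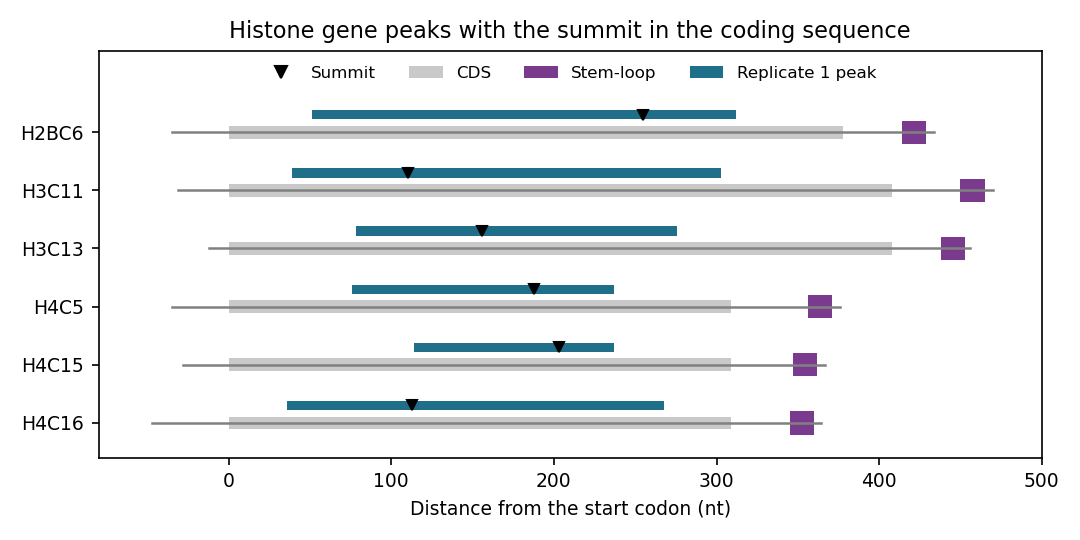
Peaks with the summit in the coding sequence, by distance from the start codon (nt); bars above each gene are the peaks of replicate 1 and triangles their summits, with the coding sequence in grey and the stem-loop in purple. All 6 summits lie 110 to 255 nt after the start codon, and replicate 2 had no peak in these stretches.

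Taking all peaks of the histone genes, the median fold enrichment in replicate 1 was 2.59 over 9 peaks, with a range of 1.51 to 8.56. The 6 peaks of the core had a median of 2.09 and the 3 outside it had 7.07. In both replicates the peaks outside the core included those of H4C14 and H4C15, near copies that count as 1 site. The other protein-coding exonic peaks had a median of 5.22 (quartiles 3.63 and 7.65), and 14.8% of them were under 3, against 6 of 9 histone peaks. In replicate 2 the 4 histone peaks, all outside the core, ranged from 6.09 to 7.48 with a median of 6.74, against 4.72 (3.34 and 6.61) for the others. Single-exon genes in the length range of the histone genes had medians of 6.71 over 283 peaks and 5.39 over 244 peaks. Peaks of ribosomal protein genes had medians of 3.10 over 9 peaks and 3.94 over 4.

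**Figure D4:**
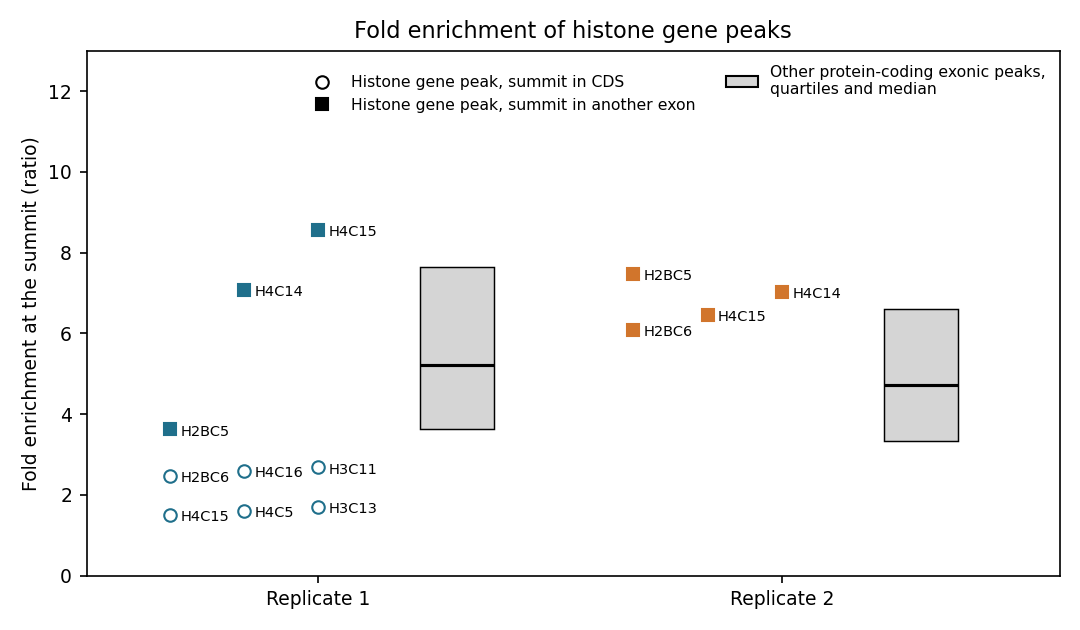
Fold enrichment at the summit (ratio) of each histone gene peak in replicates 1 and 2, open circles for summits in the coding sequence and filled squares for the others; grey boxes give the quartiles and median of the other protein-coding exonic peaks. The 6 coding sequence peaks of replicate 1 (1.51 to 2.68) lie below the lower quartile of 3.63, and the 4 peaks of replicate 2 (6.09 to 7.48) lie above the median of 4.72.

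The sequence around the summits was read for GGAC, a common m6A context, on the gene strand. The GGAC nearest to the summit is shown for the sites named above, as 28 nt of hg38 with GGAC in capitals, to set the peaks outside the core beside those of the coding sequence:
H4C14, second exon (chr1:149834568-149834595, plus strand): aaacttggctatGGACgtgggggcttgt
H4C15, second exon (chr1:149859221-149859248, minus strand): aaacttggctatGGACgtgggggcttgt
H2BC5, distal exon (chr6:26171245-26171272, plus strand): attacttgccatGGACtacctttgctaa
H3C11, CDS (chr6:27872070-27872097, minus strand): ggagatcgcacaGGACtttaagaccgat
H3C13, CDS (chr1:149813436-149813463, minus strand): cgagatcgcgcaGGACtttaagacggac
H4C15, CDS (chr1:149860913-149860940, minus strand): gaatgtgattcgGGACgcagtcacctac
H4C16, CDS (chr12:14770998-14771025, minus strand): gaaggtgctgcgGGACaatatccaaggc
The site of H4C14 and H4C15 was the same in both copies and lay inside the peaks, 255 to 285 nt downstream of the summits. That of H2BC5 lay 172 and 174 nt downstream, inside the peak of replicate 1 and outside that of replicate 2. In H3C11 and H3C13 the GGAC sat at the same place of the H3 reading frame (-176 nt from the stop codon), and was 122 and 76 nt downstream of the summits. The closest was that of H4C15 in the coding sequence, 2 nt from its summit, and in H4C16 it was upstream at -40 nt. In the coding sequence of H2BC6 it was at -179 nt and in H4C5 at 96 nt, outside the peak. For the upstream summit of H2BC6 in replicate 2 it was at -267 nt, outside the peak.

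Within 50 nt of the summit, GGAC was found for 2 of 9 histone peaks in replicate 1 (22.2%) and for 0 of 4 in replicate 2, against 49.8% and 51.8% of the other protein-coding exonic summits. Within 100 nt the values were 4 of 9 (44.4%) and 0 of 4, against 71.8% and 73.2%. Widening the search to GGAC or its forms with A in place of the first G, the second G or both, on the gene strand, gave 7 of 9 (77.8%) and 4 of 4 (100%) within 50 nt, against 84.4% and 87.3%. Within 14 nt of the summit it was 2 of 9 (22.2%) and 1 of 4 (25%), against 40.9% and 44.1%. The 1 of replicate 2 was the upstream summit of H2BC6, outside the core, with AGAC. The 29 nt centered on 3 summits outside the core, in which any of these 4 motifs would stand in capitals, held none of them:
H4C14, replicate 1 (chr1:149834305-149834333, plus strand): agccttgccttccagaagcttaccagtcg
H4C15, replicate 1 (chr1:149859490-149859518, minus strand): ggatgcaagccttgccttccagaagctta
H2BC5, replicate 1 (chr6:26171073-26171101, plus strand): ctgtgtggatcccacccaaatccaactca
The 2 H4 windows overlap in the copied sequence because the summits were 1634 and 1627 nt from the start codon. A summit marks the height of the fragments and not the modified base, so these letters are a description of the place alone.

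In the short mRNAs themselves GGAC was counted too. From the start codon to the stem-loop, 51 of 68 genes had at least 1, with a median of 1.00 and at most 4. Of 1084 other protein-coding genes with a canonical transcript of 386 to 800 nt, 91.7% had at least 1. Lengths within that range were not matched to the histone genes. The density in the histone genes was 2.79 per 1000 nt. It was 3.83 over the canonical transcripts of all other protein-coding genes, whatever their length, so the stretches compared are unlike.

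Some of these genes have near-identical copies, and a read that lies wholly in an identical stretch cannot be assigned by sequence. The coding sequence of 8 genes was identical to that of another (H2AC18 and H2AC19, H3C14 and H3C15, H4C11 and H4C12, H4C14 and H4C15), 11 genes had a partner of 95% identity or more, and 16 shared a stretch of 100 nt exactly. The median identity to the closest gene of the set was 77.3% in H1, 90.6% in H2A, 93.1% in H2B, 88.3% in H3 and 86.1% in H4. The proteins were far more alike than the coding sequences in H3 and H4. Of 15 H4 genes 14 encode 1 protein, and of 13 H3 genes 10 encode 1 protein, while the 18 H2B genes encode 14.

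At the peaks, 5 of 9 summit windows (75 nt on each side) in replicate 1 (55.6%) and 2 of 4 in replicate 2 (50%) had another place in the genome with 98% identity or more, against 3.51% and 3.58% of the other protein-coding exonic summits. Apart from H3C13 and H2BC6 in replicate 1, all of these windows were of H4C14 and H4C15, which count as 1 site. H3C13 had 4 such places, at H3C14, H3C15, H3-7 and the pseudogene H3P4 on chromosome 1, and the closest had 99.3% identity. H2BC6 in replicate 1 had 1, with 98% identity to H2BC5. The window of H3C11 had no such place, and its closest was H3C8 with 90%. H4C5 and H4C16 had no place of 90% or more, although their H4 protein is shared by 14 genes. Windows of H4C14 and H4C15 were thus identical between both genes, while those of H3C13 and of the coding sequence of H2BC6 differed from their closest copy at few bases. How reads of such near copies were placed is not given in the sources used here.

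**Figure D5:**
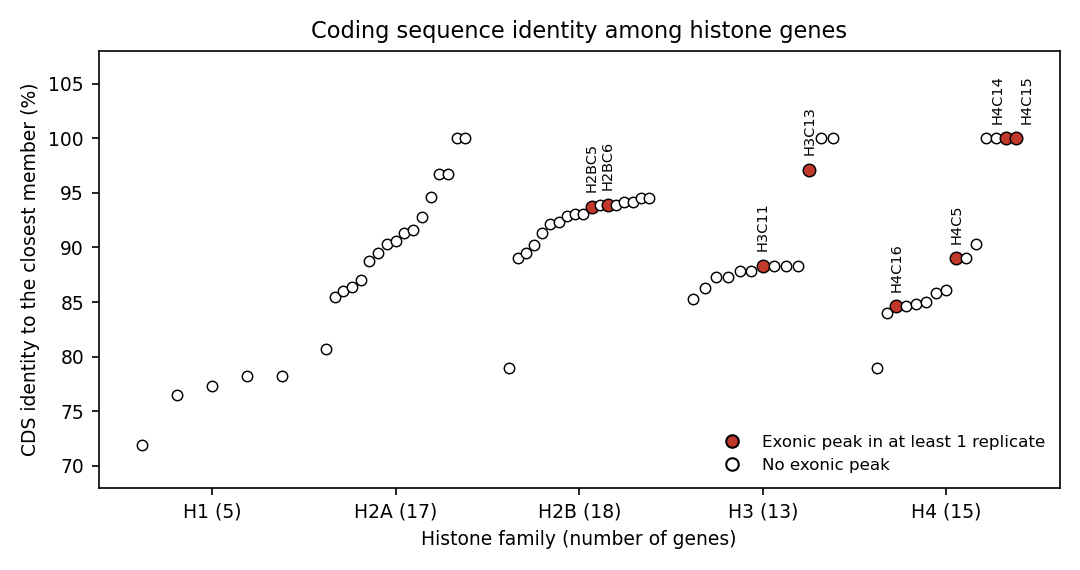
Identity of the coding sequence to the closest gene of the set (percent) for each of the 68 genes, by family and in ascending order; red points are the 8 genes with an exonic peak in at least 1 replicate. Of the red points, H4C14 and H4C15 stand at 100%, H3C13 at 97.1%, H2BC6 at 93.9% and H2BC5 at 93.7%. Lower stand H4C5 (89.0%), H3C11 (88.3%) and H4C16 (84.6%).

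The remaining 60 genes had no exonic summit in either list. They were all genes of H1 (H1-1 to H1-5) and of H2A (H2AC1, H2AC4, H2AC6, H2AC7, H2AC8, H2AC11 to H2AC21 and H2AC25), 16 of H2B (H2BC1, H2BC3, H2BC4, H2BC7 to H2BC15, H2BC17, H2BC18, H2BC21 and H2BC26), 11 of H3 (H3C1 to H3C4, H3C6 to H3C8, H3C10, H3C12, H3C14 and H3C15) and 11 of H4 (H4C1 to H4C4, H4C6 to H4C9 and H4C11 to H4C13). Of the 17 genes with exons beyond the stem-loop, 3 had a peak there and 14 had none. Among the 14 were H2BC26 with 4541 nt, H2BC15 with 3699 nt and H2BC4 with 2421 nt of such exon. A missing peak does not show that the RNA lacked m6A, since neither its level nor the smallest enrichment that could be called is known.

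Histone genes listed as replication-independent, most of them not limited to S phase and with polyadenylated mRNAs, are given for comparison. Whether this holds for each of them, H2AX and H2AJ included, was not checked. The median exonic length of the 11 such genes was 3332 nt. Exonic peaks were found in 6 of them in replicate 1, where 35.7% of other protein-coding genes of 2000 to 4000 nt had one. In both replicates 3 had one, against an average of 29.9% among genes of like length. These 3 were H1-10 (5.73 in replicate 1, at a summit that also lay in an exon of the antisense gene H1-10-AS1, and 4.98 in replicate 2), H2AX, the DNA damage variant of H2A (4.78 and 3.41), and H2AJ (3.06 and 2.86), all as fold enrichment. MACROH2A1 (2.67), CENPA, the centromere H3 (5.08), and H3-3B (9.46, at a summit that also lay in an exon of UNK) had a peak in replicate 1 only.

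The factors that make, cut and degrade histone mRNA had a median exonic length of 6707 nt per gene. Of 13, 10 had a peak in replicate 1 and 8 in both, against 39.5% of genes of like length in both. In replicate 1, 51.8% of other protein-coding genes of 4000 to 8000 nt had one. The 5 with the highest geometric mean fold enrichment of both replicates were CASP8AP2, a factor of histone gene transcription and processing (14 and 12.5), TUT7, which adds uridines to histone mRNA (9.38 and 10.3), ERI1, the exonuclease at the stem-loop (12.5 and 6.94), NPAT, the coactivator of histone genes (12.5 and 5.32), and ZNF473, a protein of the U7 complex (6.92 and 7.28). SLBP itself had a low peak of 1.87 in replicate 1 and none in replicate 2. Of 14 histone chaperones, with a median exonic length of 5768 nt, 11 had a peak in replicate 1, to be set beside the same 51.8%. In both replicates 10 had one, against 39.1% of genes of like length. CHAF1A, of the CAF-1 complex, had 12.5 and 10.6, ASF1A 13.1 and 4.55, NASP 8.44 and 4.95, HIRA 6.54 and 5.72 and DAXX 7.02 and 5.30.

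The cell type could not be checked by these lists. Of 6 epithelial marker genes only CDH1 had a peak in both replicates (4.47 and 3.85), against 35.3% of genes of like length. Of 4 markers of other cells COL1A1 had one in replicate 1 (3.11) and 0 had one in both, against 45.6%. A missing peak does not show that the RNA was absent.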

How the data were processed

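Peak lists of meRIP-seq in OE-19 cells were analyzed, with groups taken from the sample labels (2 m6A IP and 2 input samples). The labels do not say whether replicates came from separate cultures. The submitters' processing notes name fastp, HISAT2 and MACS2 with hg38, while the study's methods name TopHat2 and MACS2 with default settings, and releases are not given in the sources used here. Whether the input served as control in peak calling is likewise not given. The labels describe UV-fixed, lysed cells, whereas the methods describe fragmented total RNA. For each peak the authors deposited a fold enrichment (the ratio of its summit to the caller's background), p-values and q-values as -log10, a score that was not used, and the summit offset. No peak had a q above 0.0491 (replicate 1) or 0.0497 (replicate 2). All contig names (44 and 53) were those of hg38.

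Genes came from GENCODE version 44 (62700 genes), with coordinates 1-based. A summit in an exon of any annotated transcript counted for that gene, on either strand. The stem-loop was searched as 16 nt with up to 2 mismatches within 200 nt after the stop codon. Windows of 75 nt on each side of a summit were aligned to hg38 with BLAST 2.17.0 and coding sequences with edlib 1.3.9.post1, under Python 3.11.15. Intervals are 95% Wilson intervals and cover counting error only. No test was made, because 1 group had values. The scripts were tested on simulated data. All histone genes by the symbol rule are accounted for; every one with an exonic summit is given in each list. Of the comparison lists, histone genes with a peak in both replicates are named, and of the other 2 lists at most 5 genes by geometric mean fold enrichment; other genes named there were chosen after their values were seen. The members and lists were chosen with earlier results of these data known, and the division into core and further exons was made after seeing the data. Alternatives were stricter q, fold enrichment of 5 or more, equal list lengths, peak midpoint or any overlap, canonical transcripts, summits in exons of 1 gene, a wider symbol rule, other length and identity limits, other windows for GGAC, and each replicate alone. Some items are not reported here and were left out of the comparison lists.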

Additional observations from a re-analysis of the deposited data

Results flagged for a closer look

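Signal outside the exons of the histone genes was looked at because the counts of genes with a peak do not use it. Within 2000 nt of a histone gene or in its introns, 4 peaks in replicate 1 and 4 peaks in replicate 2 had the summit in no annotated exon. In both replicates they included the peak upstream of H4C14 (4.69 and 4.67) and the peaks past the last exons of H4C14 (2.99 and 2.77) and H4C15 (3.55 and 2.85), which also lie 993 to 1035 nt from the start codons of H3C14 and H3C15. The others were a peak near the end of H2BC5 in replicate 1 (3.38) and a peak in an intron of H2BC18 in replicate 2 (5.19). A further 5 peaks in replicate 1 and 3 in replicate 2 lay in an exon of another gene. The inputs gave no list, so a level without antibody was not at hand, and the source of these peaks was not tested.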

How the results depend on the processing

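Alternatives were run for the counts, shares, positions, fold enrichments, copies and GGAC of the histone genes. With summits counted in canonical transcripts only, 0 genes had a peak in replicate 2 and 0 in both. With a fold enrichment of 5 or more, 2 genes remained in replicate 1 and 2 in both replicates (H4C14 and H4C15 each time), and the median of the best peaks in replicate 1 was 7.81 in place of 2.63. By the other planned choices 6 to 9 genes had a peak in replicate 1, 3 or 4 in replicate 2 and 3 or 4 in both. Leaving out 1 replicate gave 4 to 8 genes, with 8 when replicate 2 was left out. The difference from genes of like length was 0.415 percentage points with this minimum of 5, 1.62 without replicate 2 and -0.700 without replicate 1, and it ranged from -2.95 to -0.299 by the other choices, all within the counting error. Positions, copies and GGAC shares kept within their counting error under the alternatives run. No paired analysis was possible because the input samples had no peak list here and no test was made. Depth is unknown, so a gene without a peak cannot be told from one with too few reads, and the lists hold no strand. Identical copies limit which gene a peak belongs to.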
